A study of Mus musculus with 4 samples.

Results

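The genes described here are 10 genes of desquamation, the shedding of corneocytes at the skin surface, in skin of mouse embryos with or without Ovol2 overexpression in the epidermis. They are the 7 epidermal kallikreins Klk5, Klk6, Klk7, Klk8, Klk10, Klk11 and Klk13, the membrane-anchored proteases matriptase (St14) and prostasin (Prss8), and the inhibitor gene Spink5. They were found by symbol among the 19938 genes that have a probe set of their own on the array, and each of the 10 has exactly 1 such probe set. Total RNA of whole skin at E17.5 (embryonic day) was hybridised to 4 Affymetrix whole-transcript arrays, each holding RNA pooled from 2 female mice. The Ovol2 BT group (2 arrays, genotype TRE-Ovol2-Flag;K5-tTA, strain given as FVB/N) carries a tagged Ovol2 transgene under a tetracycline-responsive element together with K5-tTA. In that driver a keratin 5 promoter, which works in basal keratinocytes, makes the tetracycline-controlled transactivator. The control group (2 arrays, strain given as CB6F1) carried TRE-Ovol2-Flag without the driver, or was wild type. The labels also call the mice littermates. Genotype and labelled strain cannot be told apart, and no tetracycline or doxycycline regimen is given in the sources used here.

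Corneocytes are held together by corneodesmosomes, which contain desmoglein 1, desmocollin 1 and corneodesmosin. Kallikreins are secreted serine proteases made in the upper epidermal layers as inactive precursors. Once activated, in part by each other and by membrane-anchored proteases, they cleave these junction proteins so that cells can be shed. LEKTI, the protein encoded by Spink5, holds kallikreins in check through many Kazal-type inhibitory domains, and its loss causes the barrier disease Netherton syndrome in humans.

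The 7 kallikrein genes lie in 1 cluster on chromosome 7, with Klk12 and Klk9 among them, and Klk10 stands between Klk11 and Klk9. Prss8 is elsewhere on chromosome 7 and St14 on chromosome 9 (gene table of GRCm38.p6). The 250 bases before the start of 3 of the cluster's genes are shown because these genes gave different results: Klk10 was called lower, Klk8 lies close by and was not called, and Klk6 had its higher values in Ovol2 BT. Sequences are from RefSeq (GRCm38.p6, plus strand, 5′ to 3′). Capitals mark TTAAAA, a motif picked after the sequences had been seen. For Klk6, the second of 2 listed starts is shown, the only one of them with this motif.
Klk10, chr7:43780804-43781053: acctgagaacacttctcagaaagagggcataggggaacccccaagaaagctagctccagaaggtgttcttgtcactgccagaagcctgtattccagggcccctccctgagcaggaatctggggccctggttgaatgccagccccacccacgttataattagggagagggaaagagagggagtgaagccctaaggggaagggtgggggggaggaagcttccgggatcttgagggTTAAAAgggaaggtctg
Klk8, chr7:43797327-43797576: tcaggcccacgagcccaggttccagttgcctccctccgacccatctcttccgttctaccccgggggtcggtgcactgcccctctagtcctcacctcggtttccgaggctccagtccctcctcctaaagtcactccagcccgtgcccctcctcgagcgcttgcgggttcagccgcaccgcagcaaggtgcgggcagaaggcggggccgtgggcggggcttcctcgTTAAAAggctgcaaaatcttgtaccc
Klk6, chr7:43825200-43825449: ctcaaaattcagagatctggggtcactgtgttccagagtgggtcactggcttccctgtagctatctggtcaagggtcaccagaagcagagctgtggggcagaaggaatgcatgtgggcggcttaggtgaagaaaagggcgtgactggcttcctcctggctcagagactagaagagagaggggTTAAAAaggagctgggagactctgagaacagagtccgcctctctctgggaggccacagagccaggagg
The table held promoters for 7 of the 10 genes, all of them kallikreins, with 9 starts in all. Each was searched on both strands. TTAAAA occurred before 4 of the 9 starts (1 each of Klk6, Klk8, Klk10 and Klk11) and in 17.7% of all 32851 promoters of the same length. It ended 12 bases before the start in Klk10, 21 bases before it in Klk8, 63 bases before it in Klk6 and 228 bases before it in Klk11. CCGTTA, the core bound by Ovol factors, was found in none of the 9 windows and in 2.18% of all promoters. The AP-1 site TGANTCA was found in none of the 9 and in 6.75% of all. The E-box CANNTG was found before 7 of the 9 starts and in 66.2% of all promoters, and the Klk10 window held none. A match or its absence describes these letters in these windows only.

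The deposited intensities are on a linear scale and come without detection calls. They were tested with limma on log2(intensity + 16), two-sided, over 14953 genes, after the dimmest 25% of genes by mean had been dropped. All 10 desquamation genes passed that filter. Differences are Ovol2 BT minus control on this log2 scale, and a gene was called at a Benjamini-Hochberg adjusted p under 0.05. Median intensities of the arrays lay between 123 and 132. With 2 arrays a group, precision is limited throughout. Ovol2 itself had intensities of 4367 and 3893 in Ovol2 BT skin, against 360 and 161 in control skin. The keratinocyte genes Krt5, Krt14, Krt1, Krt10 and Lor had intensities of 2170 to 11944 across the 4 arrays, so these keratinocyte markers were high on every array. In whole skin, fewer cells of a type and less RNA per cell cannot be told apart.

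Klk10 was lower in Ovol2 BT skin and was the only one of the 10 desquamation genes to be called. Klk6 had higher values in Ovol2 BT, and the other 8 genes had lower ones, but none of these 9 passed the test. Over all genes tested, 0.963% were called, 0.615% higher and 0.348% lower. At an unadjusted p under 0.05, 1 of the 10 was higher (Klk6) and 1 lower (Klk10), against 10.4% of all genes in either direction and 5.24% lower. Of the 10 genes, 9 had a negative difference, against 55.6% of all genes tested. Their median difference was -0.23, against -0.041 over all genes. That count rests on 1 array: without control replicate 1, 5 of the 10 were negative with a median of -0.0058, against 51.0% and a median of -0.0084 over all genes. In such a fit the lone array of a group is assumed to vary like the other group. With all 4 arrays, the keratinocyte marker lists were also mostly negative. These were 14 of 15 granular and cornified genes (median -0.31), 7 of 8 spinous genes and 7 of 8 basal genes. The groups did not overlap for 3 of the 10 genes (Klk6, Klk10 and St14), against 42.3% of all genes tested. Of these, 1 was higher, against 20.4%, and 2 were lower, against 21.9%, so the share of separated genes was no larger than over the array as a whole.

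**Figure D1:**
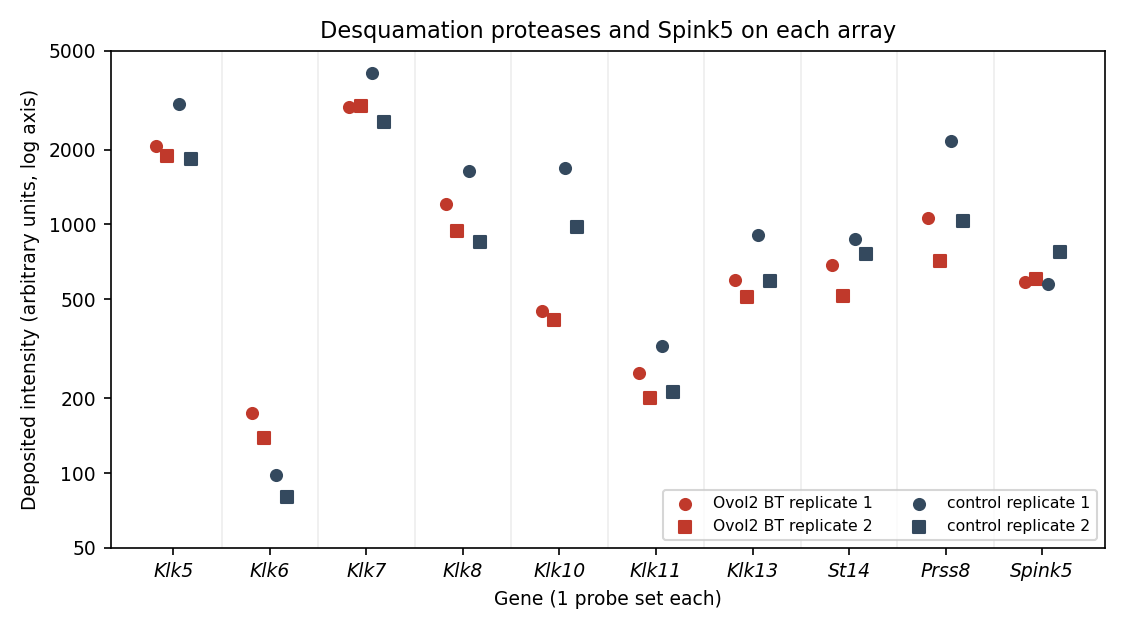
Deposited intensity (log axis) of the 10 desquamation genes on each array; circles are replicate 1 and squares replicate 2 of Ovol2 BT (red) and control (blue). Klk10 is at 449 and 413 in Ovol2 BT, below both controls at 1692 and 979, while control replicate 1 is the highest array for 8 of the 10 genes.

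Klk5 and Klk7 are the best known desquamation enzymes of skin: Klk5 is trypsin-like and can activate other kallikrein precursors, and Klk7 is chymotrypsin-like. Klk5 had intensities of 2076 and 1879 in Ovol2 BT skin, against 3049 and 1842 in control skin. Klk7 had 2970 and 2986 in Ovol2 BT, against 4060 and 2585 in control. For both genes the Ovol2 BT arrays lay between the 2 control arrays. The difference of Klk5 was -0.26 (SE 0.25, 95% interval -0.82 to 0.30, limma adjusted p = 0.728). That of Klk7 was -0.12 (SE 0.22, 95% interval -0.63 to 0.39, limma adjusted p = 0.864). Without control replicate 1 both turned positive, at 0.10 for Klk5 and 0.20 for Klk7. These intervals leave room for differences of either sign.

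Klk8 (neuropsin), Klk11 and Klk13 are further kallikreins of the upper epidermis. Klk8 had intensities of 1203 and 941 in Ovol2 BT, against 1641 and 854 in control. Klk11 had 253 and 201 in Ovol2 BT, against 324 and 211 in control. Klk13 had 600.0 and 509 in Ovol2 BT, against 911 and 593 in control. The groups overlapped in all 3, with control replicate 1 the highest array each time. Their differences were -0.15 (95% interval -0.84 to 0.54) for Klk8, -0.20 (-0.77 to 0.36) for Klk11 and -0.40 (-0.98 to 0.17) for Klk13, with limma adjusted p of 0.873, 0.789 and 0.613. Without control replicate 1, Klk8 was at 0.31, Klk11 at 0.088 and Klk13 at -0.10, and leaving out Ovol2 BT replicate 2 put Klk8 at 0.022.

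Klk10, a secreted kallikrein of stratified epithelia, had intensities of 449 and 413 in Ovol2 BT skin, against 1692 and 979 in control skin. Both Ovol2 BT arrays lay well below the lower control. The difference was -1.55 (SE 0.27, 95% interval -2.17 to -0.93, 2.92-fold lower, limma adjusted p = 0.0381), and 0.575% of all genes tested had one at least as far from 0. With 1 array left out it lay between -1.94 (without control replicate 2) and -1.16 (without control replicate 1). Klk10 was called in 12 of 17 alternative settings, and its difference was negative in all 17. The 12 include the fits with 1 array left out, which lean more on the variance of other genes. Their prior degrees of freedom were 11.4 or more, against 6.94, so a call in them is no stricter check. The call ended with no filter on low values (adjusted p = 0.0529), under quantile normalization (0.0561) and without a variance trend (0.0505). It also ended with arrays centred on desmosome and adherens junction genes (-1.09, 0.0944) or on spinous and granular genes (-1.20, 0.475).

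Klk6, a trypsin-like kallikrein that is also abundant in the central nervous system, was the gene whose values ran the other way. It had intensities of 175 and 139 in Ovol2 BT, against 98.4 and 79.8 in control. Both Ovol2 BT arrays lay above both controls. The array medians were 123 to 132, so both controls lay below them. With the lower 50% of genes left out, Klk6 was not among the genes tested. The difference was 0.71 (SE 0.19, 95% interval 0.29 to 1.14, 1.64-fold, limma adjusted p = 0.182), so Klk6 was not called, and it lay between 0.56 and 0.87 with 1 array left out.

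**Figure D2:**
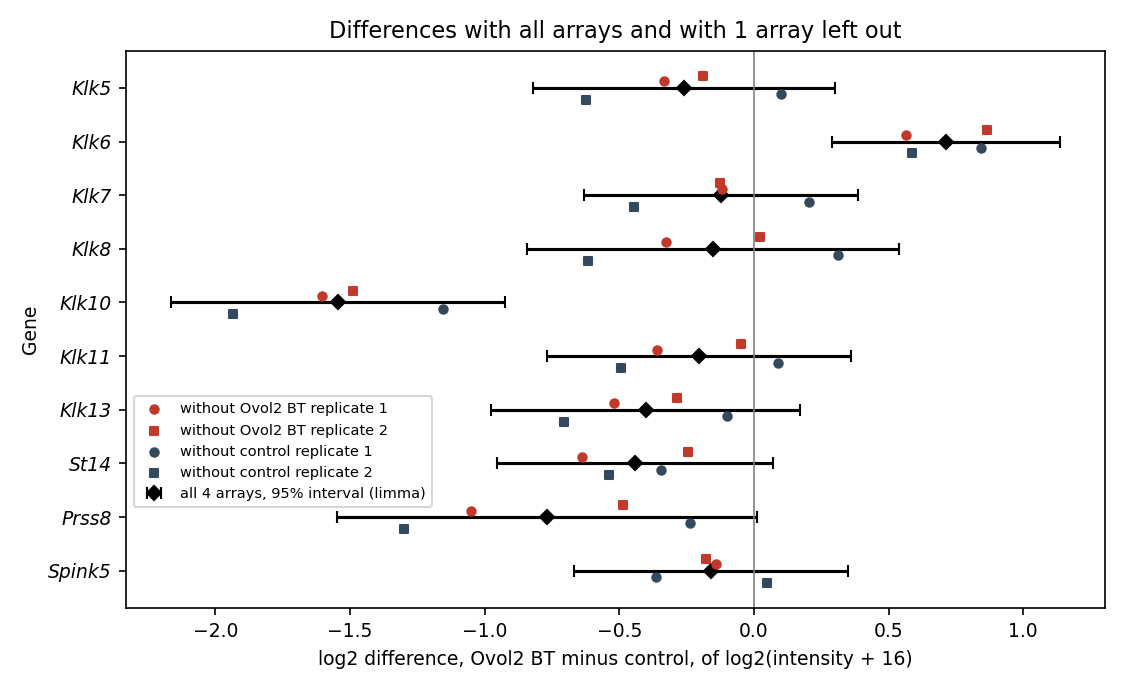
log2 difference, Ovol2 BT minus control, of the 10 desquamation genes: diamonds with 95% limma intervals use all 4 arrays, and coloured points leave out 1 array each. Klk10 stays between -1.94 and -1.16 and Klk6 between 0.56 and 0.87, while Klk5, Klk7, Klk8 and Klk11 lie above 0 without control replicate 1.

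The activating proteases had lower values in Ovol2 BT without passing the test. St14 encodes matriptase, a transmembrane serine protease that activates prostasin and kallikrein precursors. It had intensities of 684 and 518 in Ovol2 BT, against 872 and 761 in control. The groups did not overlap, with a difference of -0.44 (SE 0.23, 95% interval -0.95 to 0.071, limma adjusted p = 0.555). With 1 array left out it lay between -0.64 (without Ovol2 BT replicate 1) and -0.25 (without Ovol2 BT replicate 2). Prss8 encodes prostasin, a lipid-anchored protease needed for the epidermal barrier and an activator of the epithelial sodium channel. It had 1062 and 714 in Ovol2 BT, against 2169 and 1028 in control, so that Ovol2 BT replicate 1 lay just above control replicate 2. Its difference was -0.77 (SE 0.34, 95% interval -1.55 to 0.011, limma adjusted p = 0.491), and 2.82% of all genes tested had one at least as far from 0. The size of the Prss8 difference turned on the control arrays: it was -1.30 without control replicate 2 and -0.24 without control replicate 1.

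Spink5, the inhibitor, had intensities of 589 and 605 in Ovol2 BT skin, against 577 and 773 in control skin. The Ovol2 BT arrays lay between the controls, and the difference was -0.16 (SE 0.22, 95% interval -0.67 to 0.35, limma adjusted p = 0.819). It was 0.047 without control replicate 2. The gene is on chromosome 18. All 9 proteases were higher on control replicate 1 than on control replicate 2, and Spink5 was lower. Relative to Spink5 on the same array, Klk10 stood at -0.38 and -0.53 in Ovol2 BT and at 1.53 and 0.33 in control, on the log2 scale. Klk6 stood at -1.66 and -2.01 in Ovol2 BT and at -2.37 and -3.04 in control. For the other 7 proteases the groups overlapped relative to Spink5, with changes in the ratio from -0.61 (Prss8) to 0.038 (Klk7). Such ratios compare changes within arrays and say nothing about the relative amounts of protease and inhibitor.

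The neighbours of Klk10 in the gene cluster were not called. The neighbour on one side, Klk11, is given above. The neighbour on the other side, Klk9, had intensities of 1665 and 1237 in Ovol2 BT, against 2478 and 1169 in control, with a difference of -0.24 (SE 0.33, limma adjusted p = 0.808) that turned to 0.29 without control replicate 1. Relative to Klk11 on the same array, Klk10 stood at 0.79 and 0.98 in Ovol2 BT and at 2.33 and 2.13 in control, a change of -1.34 on the log2 scale. Relative to Klk9 it stood at -1.85 and -1.55 in Ovol2 BT and at -0.55 and -0.25 in control, a change of -1.30. Relative to Klk13 the change was -1.14, and relative to Klk6 it was -2.26. In each of these 4 ratios the groups did not overlap. Each change is the Klk10 difference less that of the other gene, so the ratios are not a separate test of Klk10. An exact two-sided permutation test of each ratio gave p = 0.333, the smallest value that 2 arrays against 2 can give.

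**Figure D3:**
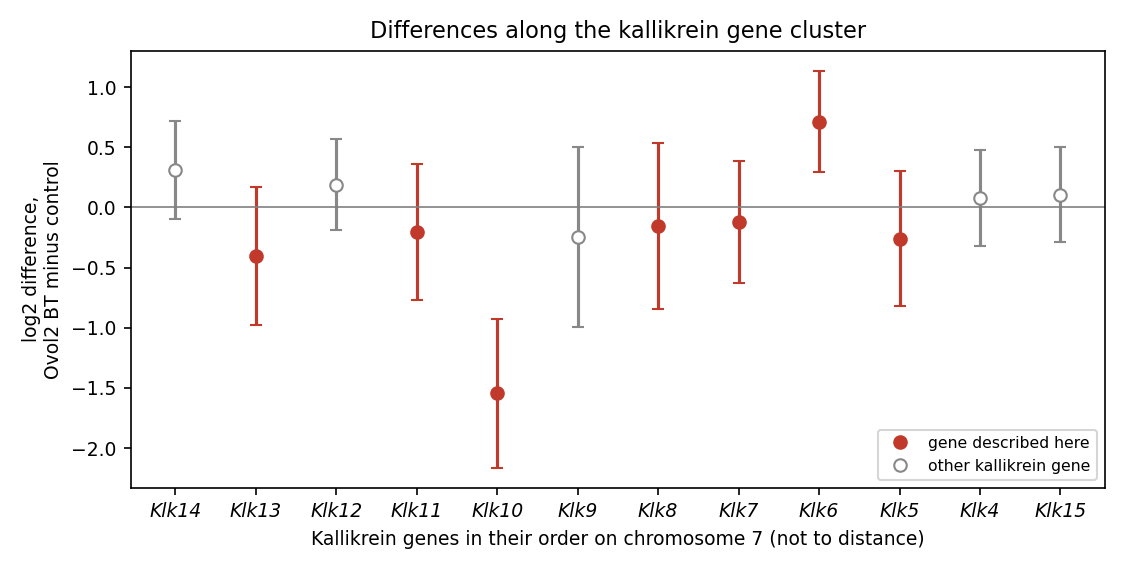
log2 difference, Ovol2 BT minus control, with 95% limma intervals, for the 12 tested kallikrein genes in their order on chromosome 7; filled red points are the desquamation genes and open grey points other kallikreins. Klk10, at -1.55, lies between Klk11 at -0.20 and Klk9 at -0.24, and Klk6 is at 0.71.

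**Figure D4:**
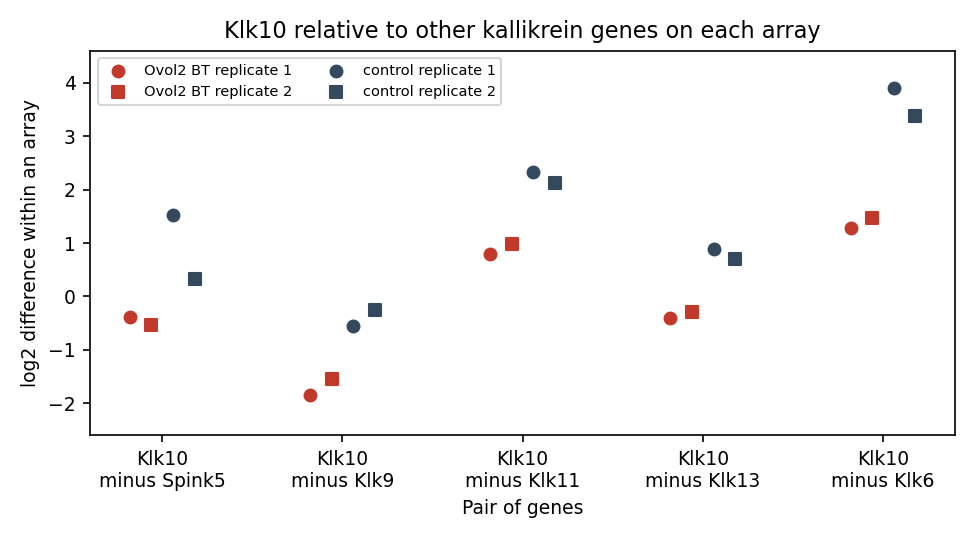
log2 difference within each array between Klk10 and Spink5, and between Klk10 and 4 other kallikrein genes, in Ovol2 BT (red) and control (blue). For each pair both Ovol2 BT arrays lie below both controls, with changes from -1.14 (Klk13) to -2.26 (Klk6).

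The 2 control arrays differed from each other for most of these genes. Control replicate 1 was the highest of the 4 arrays for 8 of the 10, against 26.7% of all genes tested. The signed gap, control replicate 1 minus replicate 2, had a median of 0.63 over the 10 genes, against 0.050 over all genes. Among the 10 it was largest for Prss8 at 1.06 (2.09-fold). Between Ovol2 BT replicates 1 and 2 the median signed gap was 0.27, against 0.017 over all genes. Gaps of either sign offset each other in these medians, so the all-gene values do not give the usual size of a gap. Of the genes that mark granular and cornified cells, 13 of 15 were also highest on control replicate 1. The mean log2 level of that list was 10.87 and 10.72 in Ovol2 BT, against 11.44 and 10.87 in control. The corresponding means of the 10 desquamation genes were 9.54 and 9.30 in Ovol2 BT, against 10.02 and 9.48 in control. The part of upper-layer content in these differences was not tested. For the other 5 of the 7 kallikreins, Klk6 and Klk10 apart, the gap between the controls exceeded the difference between the groups.

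Other genes of the pathway were described from lists of 109 genes, of which 97 have a probe set of their own and 67 passed the filter on low values. None of the 67 was called by limma, against 0.963% of all genes. At an unadjusted p under 0.05, 3 were higher and 10 were lower, against 10.4% of all genes in either direction and 5.24% lower. Of 14 other kallikreins with a probe set, 5 were tested, and 4 of these had higher values in Ovol2 BT. Klk14, a trypsin-like kallikrein that LEKTI also inhibits, had intensities of 86.6 and 122 in Ovol2 BT, against 82.2 and 78.4 in control (difference 0.31, adjusted p = 0.592). Klk12 had 126 and 140 in Ovol2 BT, against 115.1 and 115.0 in control (0.19, adjusted p = 0.710). The remaining 9, all of the Klk1b group, fell below the filter.

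Among junction proteins cleaved in desquamation, or anchored with them, each of the 6 tested genes was at a negative difference, and the median was -0.36. A wider list of desmosome and adherens junction genes, which shares some of them, was negative in all 13 tested genes (median -0.28). Over all genes tested, 55.6% were negative. Dsg1b, a desmoglein 1 gene, had intensities of 396 and 477 in Ovol2 BT, against 931 and 953 in control. The groups were well apart, and the difference of -1.09 (SE 0.21) narrowly missed the threshold (limma adjusted p = 0.0590). It was called with the lower 50% of genes left out (adjusted p = 0.0319), but not with no filter on low values (0.0804) or under quantile normalization (0.0918). In all, Dsg1b was called in 3 of 16 alternative settings. Its difference in them ran from -1.22 (without Ovol2 BT replicate 2) to -0.64. Dsg1c was at -0.44 (adjusted p = 0.365) and the plakophilin gene Pkp1 at -0.53 (adjusted p = 0.385). Cdsn, which encodes corneodesmosin, had 3625 and 3224 in Ovol2 BT, against 4875 and 3301 in control (-0.23, adjusted p = 0.716, and 0.050 without control replicate 1). Dsg1a and Dsc1 have no probe set of their own here and were not analysed.

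Other membrane-bound and epithelial serine proteases gave 8 higher and 5 lower values among 13 tested genes, with a median of 0.074. Tmprss11f, of the same family of transmembrane proteases as matriptase, had 156 and 199 in Ovol2 BT, against 304 and 325 in control (-0.78, SE 0.21, adjusted p = 0.195). Tmprss4 had 404 and 262 in Ovol2 BT, against 565 and 538 in control (-0.73, adjusted p = 0.346). Corin, a protease of heart and dermal papilla, was at -0.51 (adjusted p = 0.446). These 3 are the genes of smallest p in the list. Over its 13 tested genes the groups were separated higher in 5 and lower in 4, against 42.3% of all genes in either direction.

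Of the Kunitz-type inhibitors that block matriptase and prostasin, Spint1 had 882 and 664 in Ovol2 BT, against 1236 and 790 in control (-0.36, adjusted p = 0.653). Its difference lay between -0.68 (without control replicate 2) and -0.046 (without control replicate 1). Spint2 had 1276 and 1069 in Ovol2 BT, against 1284 and 1138 in control (-0.049, adjusted p = 0.943). Leaving out Ovol2 BT replicate 2 gave 0.077 for Spint2, and leaving out control replicate 1 gave 0.036. Both genes were highest on control replicate 1. The 3 tested Kazal inhibitors besides Spink5 were at 0.34 (Spink7), 0.20 (Spink2) and 0.18 (Spink4), with adjusted p from 0.594 to 0.718. With 1 array left out they lay between 0.070 and 0.62 for Spink7, 0.11 and 0.28 for Spink2, and 0.063 and 0.29 for Spink4. Among other secreted inhibitors, the cystatin gene Csta1 was at -0.58 (adjusted p = 0.477), the secretory leukocyte peptidase inhibitor gene Slpi at 0.38 (0.508) and Wfdc2 at 0.23 (0.622).

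In the list of other proteases and filaggrin processing of the upper layers, which also holds structural proteins of the filaggrin family, 8 of 16 tested genes had higher and 8 had lower values, and none was called. Padi3, which citrullinates filaggrin and trichohyalin, had 220 and 198 in Ovol2 BT, against 120 and 135 in control (0.65, SE 0.19, adjusted p = 0.243). Blmh, a hydrolase that breaks filaggrin down to amino acids, had 1788 and 2030 in Ovol2 BT, against 3550 and 2647 in control (-0.68, SE 0.20, adjusted p = 0.265). Ctsc, a lysosomal protease that activates serine proteases, had 581 and 871 in Ovol2 BT, against 1169 and 1203 in control (-0.72, adjusted p = 0.331). The cathepsin D gene Ctsd (0.10), the caspase gene Casp14 (0.036) and the filaggrin-processing protease gene Asprv1 (-0.18) had adjusted p of 0.867, 0.961 and 0.741. Their signs turned with an array left out: Ctsd was at -0.044 without Ovol2 BT replicate 1 and -0.067 without control replicate 2, Casp14 at -0.23 without control replicate 2, and Asprv1 at 0.018 without control replicate 1. Of 14 tested substrates and receptors, 5 had higher and 9 lower values. The smallest p belonged to Hgf (0.44, adjusted p = 0.437), a growth factor, followed by Epcam (-0.38, 0.587), a cell surface protein that matriptase cleaves, and Met (-0.30, 0.603), the receptor of Hgf. The protease-activated receptor gene F2rl1 was not analysed here.

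**Figure D5:**
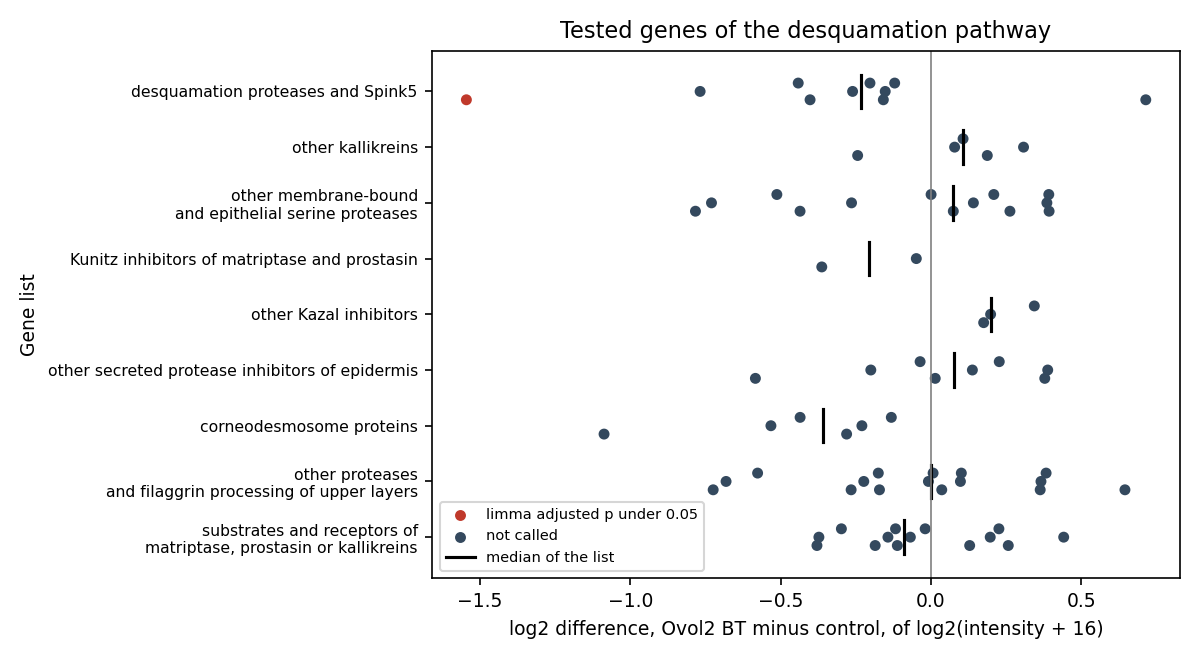
log2 difference, Ovol2 BT minus control, of every tested gene in the desquamation set and 8 related lists; each point is a gene, red where limma's adjusted p is under 0.05, and black bars are list medians. Klk10 is the only called gene, and list medians run from -0.36 (corneodesmosome proteins) to 0.20 (other Kazal inhibitors).

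Markers of other cell types and layers also differed between the groups. In the basal keratinocyte list 3 of 8 genes were called lower, all of them keratins: Krt5 (-1.10, adjusted p = 0.0148), Krt14 (-1.24, adjusted p = 0.0226) and Krt15 (-2.29, adjusted p = 0.00311), the last named after its value was seen. The other 5 basal genes, among them integrins and Trp63, were not called and had differences from -0.35 to 0.24. Summed intensities of the whole list, in which the keratins weigh most in control, were 13480 and 11623 in Ovol2 BT, against 25200 and 22975 in control. In the granular and cornified list 1 of 15 was called higher and 1 lower, with summed intensities of 46685 and 39981 in Ovol2 BT, against 63484 and 43506 in control. Krt1, Krt10 and Lor differed by -0.17, -0.13 and -0.19 and were not called (adjusted p 0.692 to 0.754). In the adipocyte list 8 of 12 genes were called higher, with summed intensities of 20203 and 20004 in Ovol2 BT, against 7195 and 6148 in control. In the hair follicle list 3 of 12 were called lower, with summed intensities of 5184 and 5057 in Ovol2 BT, against 7776 and 10590 in control. In the list of periderm and simple epithelium 1 of 7 was called higher and 1 lower, and in the melanocyte list 1 of 6 was called lower. None was called in the lists for spinous keratinocytes (8 tested), junctions (13), fibroblasts (8), skeletal muscle (8), endothelium (6), myeloid and mast cells (8) or nerve and Schwann cells (4). The nerve list, of interest because Klk6 is abundant in nervous tissue, had summed intensities of 1321 and 1322 in Ovol2 BT, against 1345 and 1248 in control. The part of these cell types in the values of Klk10 and Klk6 was not tested.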

How the data were processed

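Per the submitters' processing notes, the authors summarised each array with PLIER 2.0 in Affymetrix Expression Console 1.1.1, and they deposited the resulting linear intensities. How PLIER corrected background and normalized, and which build was used, is not given in the sources used here, so coordinates are printed only for the RefSeq sequences. Of 35557 probe sets, 21789 name 1 gene by the platform annotation, and 21698 of these matched the GRCm38.p6 gene table, with 0 symbols changed. For 999 genes with several probe sets, the brightest on average stood for the gene.

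A group term was fitted per gene to log2(intensity + 16) by lmFit and a trended eBayes (limma 3.58.1, R 4.3.3), which had 2 residual and 6.94 prior degrees of freedom. Adjustment ran over all 14953 genes. Since folds come from this scale, those of dim genes are understated. The fit was tested on simulated data with independent noise, which did not cover deviations shared by arrays of equal replicate number. Motifs, figures and summaries used Python 3.11.15, pandas 2.3.3 and matplotlib 3.10.9.

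Sample titles gave the groups and call the arrays biological replicates. Each array pools 2 mice, so the spread behind the p-values is between pools, not mice. The trended fit also draws each gene's spread toward that of genes of similar level. The genes and lists were chosen with earlier results of these data known. Genes named are the 10 described, Ovol2, fixed marker and pathway genes, and up to 3 genes of smallest p per pathway list. Alternatives were other pseudocounts, filters, normalizations, centrings, variance settings and probe set rules, a threshold of 0.10, leaving out arrays in turn, and a block for the replicate number. Arrays centred on spinous and granular genes were added after seeing the data. Flg was not analysed here.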

Additional observations from a re-analysis of the deposited data

How the results depend on the processing

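The count of 1 called desquamation gene (Klk10) became 0 with no filter, under quantile normalization, without a variance trend, and with arrays centred on junction genes or on spinous and granular genes; it ranged from 1 to 2 with 1 array left out. With the replicate block it was 3 (Klk6, Klk10 and Prss8), the pathway count was 7 against 0, and the count over all genes 671 against 144. The labels state no shared litter or batch for equal numbers, although same-numbered deviations correlated at 0.41 across genes. The pathway count was 1 (Dsg1b) with the lower 50% left out and at a threshold of 0.10, and 0 to 1 with 1 array left out. Over all genes, 206 to 366 were called with 1 array left out. The main split of 92 higher and 52 lower became 35 and 2 (37 genes) under junction centring and 81 and 13 (94 genes) under spinous and granular centring. These centrings put the all-gene median at 0.41 and 0.31, against -0.041, which shifts every difference alike. Under them the desquamation genes had medians of 0.22 and 0.12.

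Signs turned under junction centring for Klk5 (0.19), Klk7 (0.33), Klk8 (0.30), Klk11 (0.25), Klk13 (0.050), St14 (0.011), Spink5 (0.29), Klk9 (0.21), Spint1 (0.089), Spint2 (0.40), Dsg1c (0.017), Epcam (0.073), Met (0.15), Cdsn (0.22), Asprv1 (0.28), Krt1 (0.29), Krt10 (0.32) and Lor (0.27). They turned under spinous and granular centring for Klk5 (0.087), Klk7 (0.23), Klk8 (0.20), Klk11 (0.14), Spink5 (0.19), Klk9 (0.10), Spint2 (0.30), Met (0.049), Cdsn (0.12), Asprv1 (0.17), Krt1 (0.18), Krt10 (0.22) and Lor (0.16). With 1 array left out, values ran from -0.62 to 0.10 for Klk5, -0.45 to 0.20 for Klk7, -0.62 to 0.31 for Klk8, -0.49 to 0.088 for Klk11, -0.36 to 0.047 for Spink5 and -0.78 to 0.29 for Klk9. They ran from -0.17 to 0.077 for Spint2, -0.51 to 0.050 for Cdsn, -0.23 to 0.30 for Casp14, -0.37 to 0.018 for Asprv1 and -0.067 to 0.27 for Ctsd. Apart from the construction of the centrings, the cause was not tested. Pairs of arrays limit what any of these tests can detect.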
